A study of Prunus avium with 27 samples.

Results

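The regions described here are the 671 of 25635 H3K4me3 regions (2.62%) that carry a gene identifier in the deposited tables for flower buds of the sweet cherry cultivar 'Burlat'. They were chosen by that identifier alone, each identifier occurs once, and all 671 are among the 29449 genes with RNA values. Buds were cut from orchard trees in south-west France on 21 October 2014, 5 December 2014 and 27 January 2015. The labels call the October and December buds dormant and the January buds non-dormant, so date and dormancy cannot be told apart. H3K4me3 was measured by chromatin immunoprecipitation (ChIP) and sequencing in 2 libraries per date, numbered replicates 2 and 3, and RNA in 3 libraries per date, both from buds of the same branches. H3 and input libraries, 6 of each, were not analysed here. Nothing in the labels says that replicates are different trees, and the p-values reflect how far these samples differ, which may be technical.

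H3K4me3 is the trimethylated form of lysine 4 of histone H3, a mark that in plants as in animals lies mostly around the start of transcribed genes. Flower buds of fruit trees enter dormancy in autumn and leave it after a long period of cold, and known regulators of this cycle in the rose family lose or gain histone marks as they are switched. A whole bud holds scales, meristems and flower primordia, so each value is an average over all of its cells. In such bulk samples fewer cells of a type and less RNA per cell cannot be told apart.

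The identifiers are of the PRUPE form (656 with ppa and 15 with ppb), and none matched the 37283 genes of the RefSeq table of sweet cherry. That table need not be of the annotation the identifiers come from, so the lack of a match says nothing about the genes. No gene names or functions are therefore given, the buds were not checked against marker genes, and genes are named by position. Positions are those of the tables, and their genome build is not given in the sources read. Every labelled region spans from 500 bp outside an end of its gene to 1500 bp into it. That end was taken as the gene's start, which places 316 genes on the plus strand and 355 on the minus. The strand is thus inferred from the window. Of the 24964 regions without an identifier, 22802 were assigned to 1 gene by this same window. Labelled regions were 2.14% to 3.07% of the regions on each of scaffolds 1 to 8. The median span of their genes was 1825 bp, against 2237.5 bp at the other regions. In 250 of them (37.3%, against 31.0% at the other regions) the gene was shorter than the 1500 bp that the window reaches into it, so the window ran past the gene's end.

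The labelled rows stand first in the tables and are sorted by position, but the sorting starts anew 5 times and divides them into 6 runs. The runs hold 53, 40, 13, 233, 19 and 313 regions in that order, while the rows without an identifier form 1 sorted list. The sources used here state neither what the runs mean nor how identifiers were given. Each run had its own course of H3K4me3 over the dates. Since the identifiers go with the signal in this way, every H3K4me3 value of these regions is given as a description, and the RNA carries the tests.

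The H3K4me3 values are the authors' normalised signal per region (trimmed mean of M values, TMM), in which each library has its own lowest value, between 0.113 and 0.185, here called the minimum and counted as 1 read. In run 1 the median signal over regions was 0.183 and 10.8 in the October libraries, 32.3 and 34.7 in December and 49.1 and 50.7 in January. Run 2 had medians of 0.183 and 0.154 in October, 3.70 and 15.6 in December and 18.4 and 11.2 in January. Its 40 regions all stood at the minimum in October replicate 2, and 35 of them also in October replicate 3. Run 3 was low until January, with medians of 0.366 and 14.8 in October, 6.95 and 9.74 in December and 43.6 and 45.2 in January. These 3 runs, 106 regions, thus had their lowest levels in October or over both dormant dates.

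The other 565 regions were highest in October or December. Run 4 had medians of 30.9 and 41.8 in October, 11.8 and 19.8 in December and 6.48 and 4.63 in January. Run 6, the longest, had 7.32 and 23.6 in October, 1.96 and 12.0 in December and 0.132 and 0.185 in January. Of its 313 regions, 253 and 271 stood at the minimum in the January libraries, and 228 in both. Run 5 dipped in December, with 11.0 and 18.0 in October, 0.151 and 0.453 in December and 2.78 and 5.37 in January. By the date of highest mean signal, 488 of the 671 regions were highest in October, 111 in December and 72 in January.

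**Figure D1:**
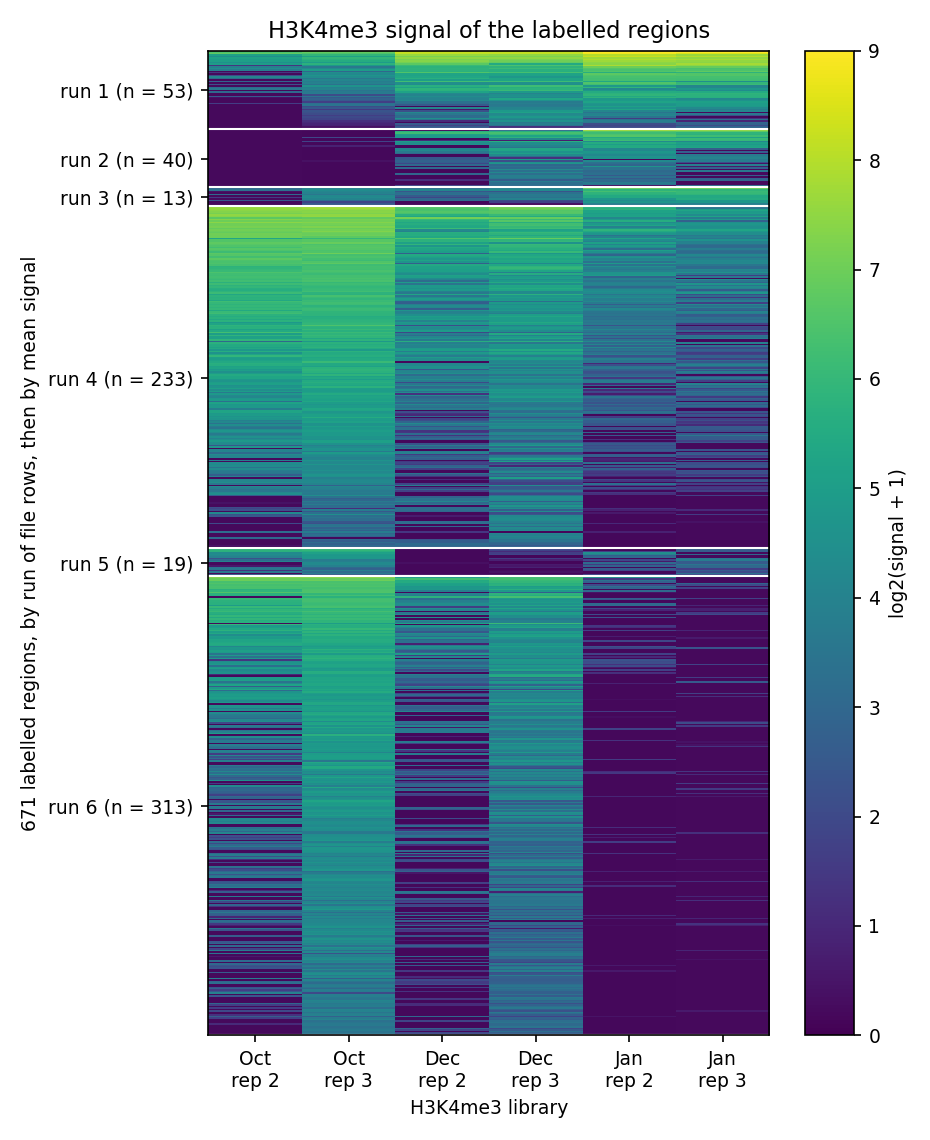
H3K4me3 signal of the 671 labelled regions (rows, by run of the tables and then by mean signal) in the 6 libraries (columns, October to January), as log2(signal + 1). Brighter colours are higher signal: runs 1 to 3 are brighter in the January columns than in the October columns, and runs 4 to 6 the reverse.

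Most labelled regions were weakly marked even at their best date. The mean signal at the highest date had a median of 22.0 (quartiles 11.9 and 50.0, range 4.76 to 552), against 54.8 at the other regions. The other regions split into very low and high ones, and those that passed the signal filter had a median of 204. The level passed 100 in 48 labelled regions (7.15%), against 44.9% of the others. At the low end the region on scaffold 2, 9996862 to 9998862, had 0.183 and 0.308 in October, 4.53 and 1.36 in December and 3.04 and 6.48 in January. Over all labelled regions the median number of reads recovered from the values was 56 and 157 in October, 37 and 133 in December and 8 and 1 in January.

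Weak as they were, these regions varied widely over the dates. The range of the mean log2(signal + 1) over the 3 dates was at least 1.62 in every labelled region, with a median of 2.94 and a maximum of 7.35. Among the 336 labelled regions at or above the median level, the smallest range was 1.88. Only 244 of 13921 other regions of at least that level (1.75%) varied so much, and the median range over the 13921 was 0.31. These sets were not matched for level, which passed 100 in 48 of the 336 and in 11202 of the 13921. The smallest ranges belonged to regions on scaffolds 1 and 6. The first, 26610413 to 26612413, had 22.1 and 38.2 in October, 17.7 and 18.8 in December and 7.01 and 7.41 in January. Even this region stood in January below all 4 libraries of the dormant dates.

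**Figure D2:**
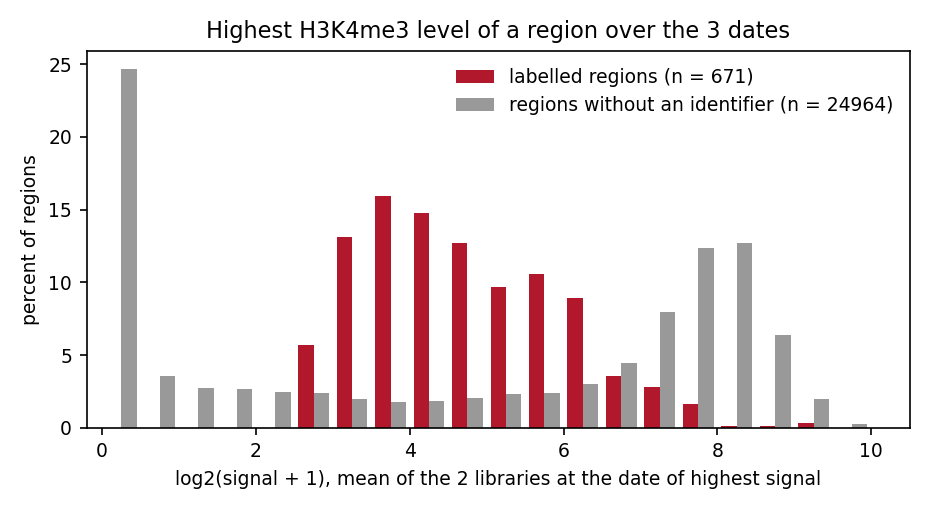
Mean H3K4me3 signal at the highest date, as log2(signal + 1), for labelled regions and for regions without an identifier, as the percent of each group per bin. Labelled regions lie between the peaks of the other regions, of which 24.7% fall between 0 and 0.5 on this scale.

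The 2 libraries of a date did not weigh these regions alike in October and December. Replicate 3 was above replicate 2 in 552 labelled regions in October (82.3%, against 49.6% of the other regions), in 574 in December (85.5%, against 54.4%) and in 408 in January (60.8%, against 42.4%). The median log2 gap between the replicates was 0.71 in October, 1.01 in December and 0.07 in January. Recovered reads were 14898960 and 18279008 in the October libraries, 19724516 and 28126160 in December and 23871977 and 14216613 in January, in the order replicate 2, replicate 3. A region at the minimum in both libraries of a date counts for the library with the higher minimum. In January that is replicate 3 (0.185 against 0.132), with 257 labelled and 7315 other regions. The January median gap is that between these minima, so no January direction is read. In October and December it is replicate 2, with 35 and 7 labelled and 6344 and 6621 other regions. On those 2 dates the library more often higher at labelled regions was the one with more recovered reads over all regions. The part of depth in the gap was not tested. October replicate 2 held 184 labelled regions at the minimum, against 36 in replicate 3, so the October level of many regions depended on the library.

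The signal filter (at least 10 in at least 2 libraries) kept 509 of the 671 regions. The 162 left out had a mean at their highest date of 4.76 to 25.3. Of the 509, limma called 280 over the 3 dates (adjusted p under 0.05, Benjamini-Hochberg), where 14.2% of all 15360 regions were called. January against October gave 314 calls, 60 higher and 254 lower, with 15.2% of all regions called (5.68% higher, 9.49% lower). December against October gave 93 calls, 40 higher and 53 lower, with 7.05% of all regions called (4.5% higher, 2.55% lower). January against December gave 87, of which 13 were higher and 74 lower, with 1.73% of all regions called (0.436% higher, 1.3% lower). Nothing is read from these counts, because the identifiers go with the signal. Without the filter the counts were 98, 11 and 0, where 741, 71 and 0 of all 25635 regions were called. January against December then had 234 labelled regions at an unadjusted p under 0.05 in limma, a count not made over all regions. With the filter, edgeR called 107 and DESeq2 261 regions for January against December, where they called 758 and 2094 of all 15360 regions. Leaving out a single library leaves 1 library at a date. The counts for January against December and for December against October then moved up or down, depending on the library left out. Those over all regions moved up or down too. By plain separation, both January libraries lay above both October libraries in 91 regions, where 18.6% of all regions did so, and below them in 443, where 19% did so. The 91 all belong to runs 1 to 3 and the 443 to runs 4 to 6. December libraries lay above the October ones in 87 regions, where 31.8% of all regions did so, and below them in 299, where 14.9% did so. January libraries lay above the December ones in 75 regions, where 6.12% of all regions did so, and below them in 333, where 19.3% did so.

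RNA of the same genes was measured in TPM, which is transcript abundance per length scaled to a fixed library total. Whether it took part in giving the identifiers is not known from the sources used here. Of the 671 genes, 461 (68.7%) had at least 1 TPM in at least 3 of 9 libraries and were tested, against 67.3% of the genes at the other regions. A further 74 (11.0%) were listed at 0 TPM in all 9 libraries, against 19.9% at the other regions. The mean TPM at the highest date had a median of 5.35, and it was 27.4 in runs 1 to 3 and 3.71 in runs 4 to 6, against 11.1 at the other regions. Over the 3 dates the RNA of 398 of the 461 genes changed (86.3%, limma F test, adjusted p under 0.05), where 71.8% of all 18384 genes tested did. Among genes tested at the other regions the share was 72.2%. Change in RNA was thus the rule in these buds.

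January against October, RNA fell in 291 and rose in 91 of the 461 genes, where 61.1% of all genes changed, 29.4% down and 31.7% up. The direction went with the runs. In runs 1 to 3, whose signal stood higher in January, RNA of 73 of 95 tested genes rose and that of 5 fell, with a median log2 change of 1.03. In runs 4 to 6 RNA of 286 of 366 genes fell and that of 18 rose, with a median of -1.29. At least a 2-fold change upwards was seen in 47 genes of runs 1 to 3 and 7 of runs 4 to 6, and downwards in 3 and 221. Of 15339 genes tested at the other regions, 879 changed so upwards and 2039 downwards, so 2-fold falls outnumbered rises there too. The median change over all genes tested was 0.03. The genes not tested, 11 in runs 1 to 3 and 199 in runs 4 to 6, are not in these counts. Over all 671 genes the mean TPM was higher in January than in October in 150, lower in 440 and listed at 0 on both dates in 81. At the 22802 other regions assigned to 1 gene these counts were 9017, 9038 and 4747.

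**Figure D3:**
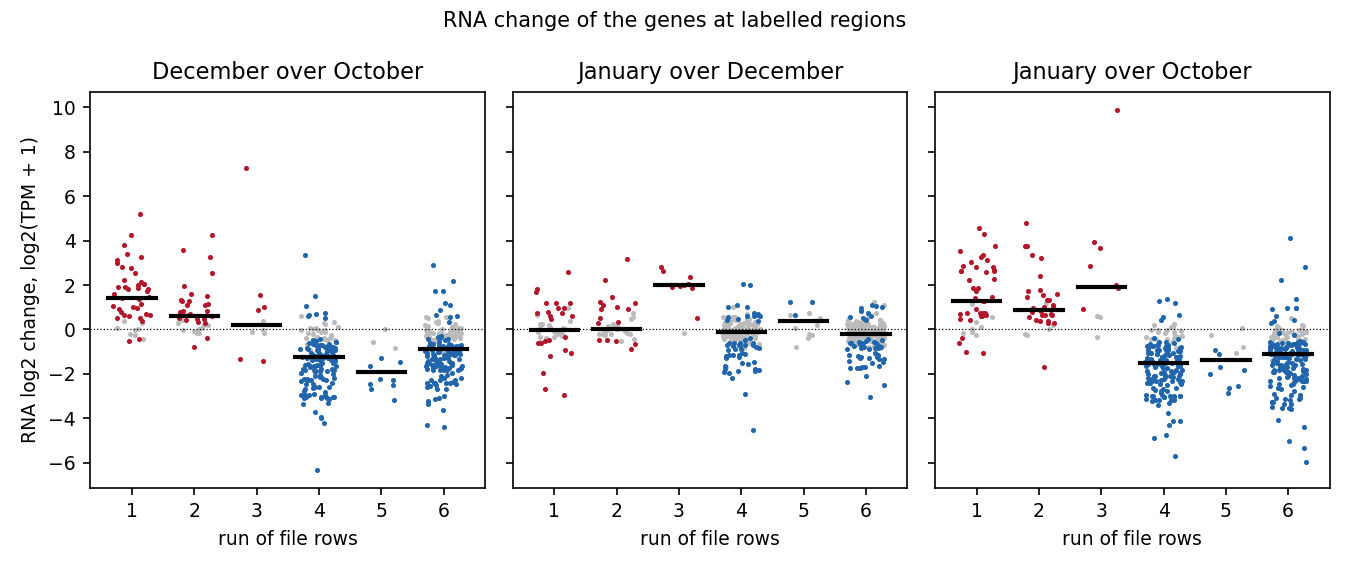
Log2 change in RNA of each tested gene, on log2(TPM + 1), by run of the tables, with a panel for each contrast of dates. Coloured points passed the test, grey ones did not, and black lines are medians, which for January against October are positive in runs 1 to 3, between 0.88 and 1.92, and negative in runs 4 to 6, between -1.53 and -1.09.

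The intervals in which RNA changed are given run by run. In run 1, 38 of 48 tested genes already rose in RNA by December against October (median log2 change 1.40), where 60.5% of all genes changed, 28.9% up and 31.6% down. From December to January 14 rose and 11 fell, with a median of -0.01, where 32.9% of all genes changed, 18.5% up and 14.5% down. Run 2 had 24 of 37 up by December (median 0.59) and 12 up and 5 down after it. Run 3 was late, since 9 of its 10 tested genes rose between December and January (median 1.98) and none fell. By December 4 of these 10 had risen and 2 had fallen. The RNA of run 3 thus moved in the same interval as its signal, although only 4 of its 13 regions were called for signal in that interval.

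In runs 4 to 6, RNA of 256 of 366 tested genes fell and that of 19 rose by December against October. In run 4, 126 of 164 fell by December (median -1.25), and 39 fell and 15 rose between December and January. In run 6, 121 of 190 fell by December (median -0.88), and 47 fell and 10 rose after it. In run 5, 9 of 12 fell by December with none rising (median -1.94), and 3 rose and none fell between December and January. Whether the runs differ from each other in these shares was not tested.

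The gene PRUPE_ppa002723mg of run 1 (scaffold 8, 21437832 to 21439832) was among the most strongly marked. Its signal was 88.8 and 114 in October, 292 and 291 in December and 519.6 and 518 in January. RNA stood at 379, 373 and 391 TPM in October, 616, 670.1 and 565 TPM in December and 1036, 999 and 1144 TPM in January. Both measures stepped up at each date with no overlap between libraries. Its RNA rose by 1.47 ± 0.07 on the log2 scale (SE) in January against October (limma, adjusted p = 9.77e-08).

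The strongest mark among the labelled regions lay at scaffold 1, 7989666 to 7991666, also in run 1. Signal was 117 and 122 in October, 381 and 359 in December and 611 and 493 in January. RNA was 115, 129 and 115 TPM in October, 887, 1049 and 942 TPM in December and 784, 694 and 792 TPM in January. Here the signal was higher in January than in December while RNA fell between those dates by 0.34 ± 0.08 (limma, adjusted p = 0.00827).

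Run 2 held early gains from the minimum. At PRUPE_ppa005448mg (scaffold 4, 9600270 to 9602270) signal was at the minimum in both October libraries, then 70.4 and 81.2 in December and 72.3 and 58.5 in January. RNA was 2.40, 1.96 and 2.23 TPM in October, 55.0, 68.6 and 56.7 TPM in December and 35.3, 29.8 and 68.1 TPM in January. December RNA was above October by 4.25 ± 0.25 (limma, adjusted p = 3.93e-07), while January and December overlapped (adjusted p = 0.142). A gene of run 2 at scaffold 4, 7012836 to 7014836, had 0.183 and 12.3 in October, 88.7 and 97.5 in December and 267 and 232 in January. Its RNA averaged 2.16 ± 0.58 TPM in October, 29.2 ± 4.59 TPM in December and 28.2 ± 2.29 TPM in January (SD, n = 3). January and December RNA overlapped (adjusted p = 0.874 by limma). Both January signal values stood above those of December, but this difference was not called either (adjusted p = 0.377 by limma). PRUPE_ppa026294mg of run 1 (scaffold 6, 1766794 to 1768794) went the same way. Its signal was 0.183 and 7.25 in October, 54.7 and 49.8 in December and 93.7 and 110.2 in January. RNA averaged 4.61 ± 0.67 TPM in October, 57.3 ± 7.33 TPM in December and 52.4 ± 4.00 TPM in January. Here too the signal was not called for January against December (adjusted p = 0.578 by limma).

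Late gain was seen at PRUPE_ppa000217mg of run 2 (scaffold 3, 2788510 to 2790510). Signal was at the minimum in October, 0.151 and 8.16 in December and 198 and 181 in January, the widest range of all labelled regions. RNA was 4.76, 3.34 and 3.02 TPM in October, 12.8, 14.6 and 12.3 TPM in December and 146, 129.5 and 107 TPM in January. RNA rose while the December signal was still low, by 1.61 ± 0.16 in December against October (limma, adjusted p = 1.37e-05), and by a further 3.17 ± 0.16 in January against December (adjusted p = 1.05e-06).

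Higher December RNA with low December signal was also seen at PRUPE_ppa011907mg of run 3 (scaffold 1, 1499480 to 1501480). Which measure rose first was not tested at either gene. Signal was 6.77 and 14.2 in October, 8.16 and 13.4 in December and 123 and 124 in January, so October and December overlapped. RNA was 0, 0 and 0.326 TPM in October, 237, 168 and 115 TPM in December and 1103, 1157 and 873 TPM in January. December RNA was high, at 7.25 ± 0.23 above October on the log2(TPM + 1) scale (limma, adjusted p = 8.84e-09), with December and October signal overlapping. A second gene of run 3, at scaffold 1, 33621805 to 33623805, took another course. Its RNA averaged 3.05 ± 2.01 TPM in October, 0.482 ± 0.193 TPM in December and 4.55 ± 1.14 TPM in January, and its signal was 0.366 and 16.5 in October, 4.38 and 4.08 in December and 77.6 and 67.6 in January.

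**Figure D4:**
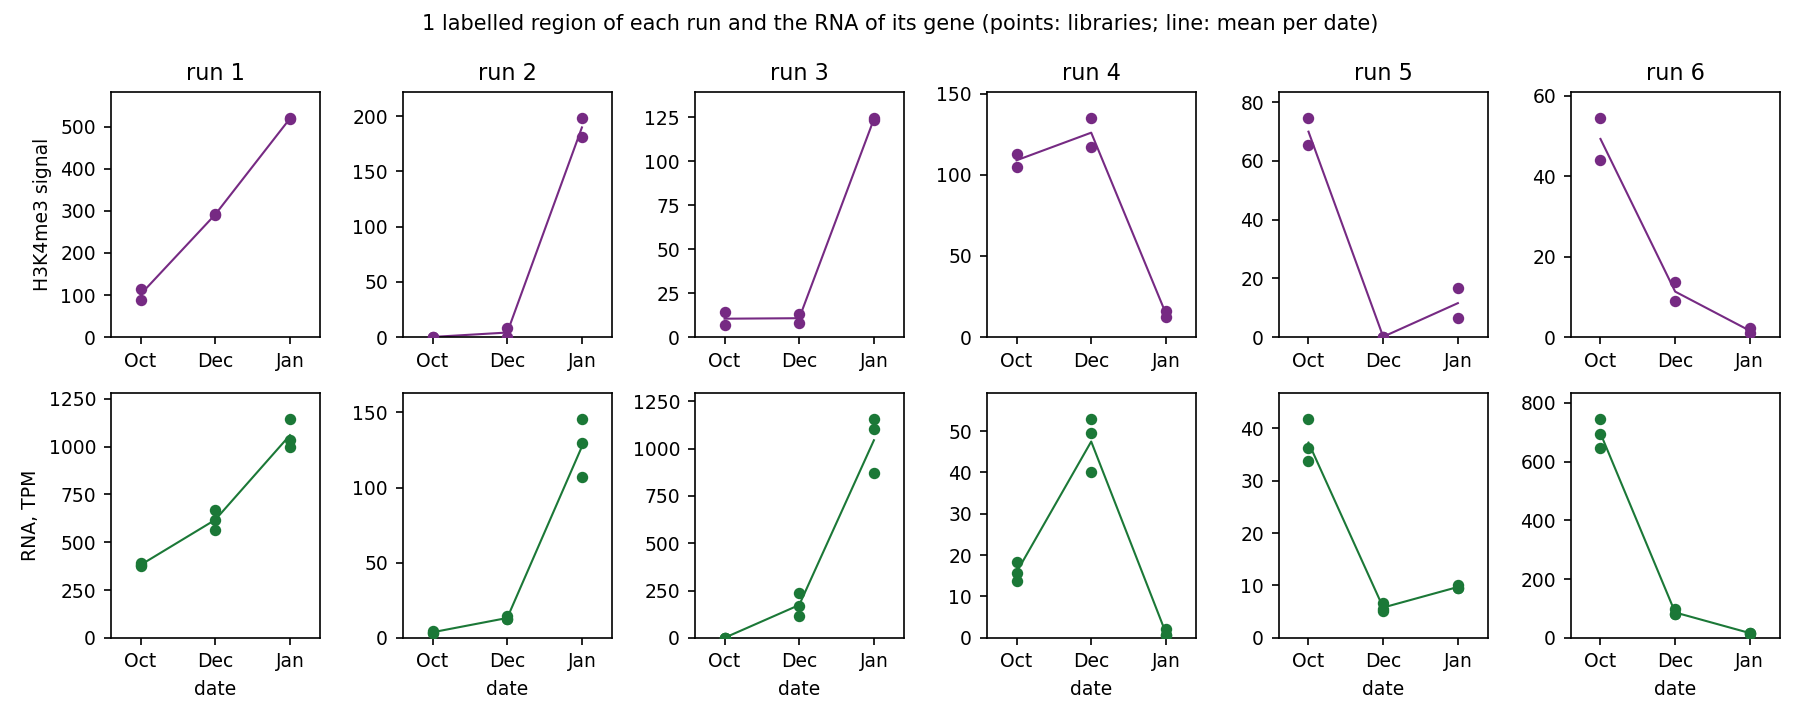
H3K4me3 signal (2 libraries per date) and RNA in TPM (3 libraries per date) of 1 gene from each run, by date. The run 3 gene has RNA of 115 to 237 TPM in December with signal of 8.16 and 13.4, and 123 and 124 in January.

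The dip of run 5 was plain at PRUPE_ppa000984mg (scaffold 5, 13017001 to 13019001). Signal was 74.5 and 65.4 in October, at the minimum in both December libraries, and 6.48 and 16.7 in January. RNA was 41.8, 36.3 and 33.7 TPM in October, 6.72, 5.04 and 5.60 TPM in December and 9.52, 10.2 and 9.42 TPM in January. RNA fell by 2.50 on the log2 scale in December against October (SE 0.13, limma, adjusted p = 2.32e-07) and rose by 0.66 ± 0.13 in January against December (adjusted p = 0.0038). At PRUPE_ppa008797mg (scaffold 1, 7495141 to 7497141) signal was 52.2 and 49.2 in October, 0.151 and 1.13 in December and 2.38 and 5.37 in January. Its RNA averaged 65.1 ± 4.37 TPM in October, 6.23 ± 1.14 TPM in December and 15.7 ± 1.63 TPM in January. Another region of this run, on scaffold 2 from 23450475 to 23452475, had 55.3 and 60.6 in October, 0.151 and 2.49 in December and 0.132 and 5.37 in January. Its RNA did not turn upwards, with 33.1 ± 3.17 TPM in October, 5.26 ± 1.48 TPM in December and 3.81 ± 1.52 TPM in January.

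In run 6, PRUPE_ppa002363mg (scaffold 1, 2033503 to 2035503) had one of the deepest falls in RNA. Signal was 54.4 and 44.1 in October, 8.91 and 13.7 in December and 2.25 and 0.926 in January. RNA was 695, 648 and 745 TPM in October, 82.5, 79.8 and 96.8 TPM in December and 14.3, 17.6 and 16.6 TPM in January. January RNA was below October by 5.35 on the log2 scale (log2 change -5.35, SE 0.10, limma, adjusted p = 8.1e-10). PRUPE_ppa007427mg (scaffold 6, 28255249 to 28257249) had a larger log2 change in RNA (-5.98, SE 0.22, adjusted p = 1.5e-08) with less signal to lose. Its signal was 27.1 and 32.4 in October, 2.87 and 17.6 in December and 0.132 and 2.22 in January. RNA averaged 226 ± 56.6 TPM in October, 10.6 ± 2.38 TPM in December and 2.58 ± 0.73 TPM in January.

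Other regions still had much of their signal in December. PRUPE_ppa026618mg of run 6 (scaffold 4, 6476560 to 6478560) had 124 and 119.8 in October, 77.3 and 78.0 in December and 1.72 and 0.185 in January. Its RNA was 15.5, 13.2 and 12.9 TPM in October, 12.6, 8.43 and 8.34 TPM in December and 0.220, 0.247 and 0.353 TPM in January. RNA fell by 3.06 on the log2 scale in January against December (SE 0.18, limma, adjusted p = 2.64e-06), after a smaller fall of 0.48 in December against October (SE 0.18, adjusted p = 0.0431). The signal was likewise lower in both December libraries than in October, and lowest in January. PRUPE_ppa016319mg of run 4 (scaffold 1, 11693184 to 11695184) had a peak of RNA in December. Signal was 105 and 113 in October, 135 and 117 in December and 16.4 and 12.6 in January. RNA was 18.2, 13.6 and 15.7 TPM in October, 52.9, 49.5 and 40.0 TPM in December and 0.624, 0.756 and 2.09 TPM in January. By January RNA was 4.54 below December on the log2 scale (log2 change -4.54, SE 0.24, adjusted p = 1.25e-06).

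Calls in both assays in one direction were made at 218 regions for January against October, 49 higher and 169 lower, where 12.3% of all 12775 regions with 1 gene tested in both assays were called so. They are 86.5% of the 252 labelled regions called for signal with RNA tested, and the share at the other regions was 78.6%. For December against October the count was 81 (36 higher, 45 lower), with 6.22% of all regions so called, and 92.0% of 88 against 80.0% at the other regions. For January against December it was 42 (10 higher, 32 lower), with 1.05% of all regions so called, and 56.0% of 75 against 60.1%. The last count fell to 14 without January replicate 3. For December against October it was 49 without October replicate 2, 122 without January replicate 2 and 126 without January replicate 3. Whether these shares differ from those of the other regions was not tested.

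Over the 378 labelled regions tested in both assays, the log2 changes of signal and RNA for January against October had Pearson's r of 0.68. Spearman's rho was 0.56. At the 12397 other regions tested in both assays r was 0.55 and rho 0.59, and whether the sets differ was not tested. These values are a description across regions, which share libraries and are not replicates. Over runs 1 to 3 together r was 0.36 (76 regions), and over runs 4 to 6 together it was 0.17 (302 regions). In runs 1 to 6 taken singly it was 0.61, 0.54, 0.08, 0.29, 0.41 and 0.35, with 45, 21, 10, 145, 9 and 148 regions. The pooled value includes the difference between the 2 groups of runs, and the value of each group includes differences between its runs. For December against October r was 0.66 pooled, 0.15 within runs 1 to 3 and 0.46 within runs 4 to 6. For January against December it was 0.47 pooled, 0.60 within runs 1 to 3 and 0.27 within runs 4 to 6. At the other regions r was 0.51 for December against October and 0.30 for January against December.

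**Figure D5:**
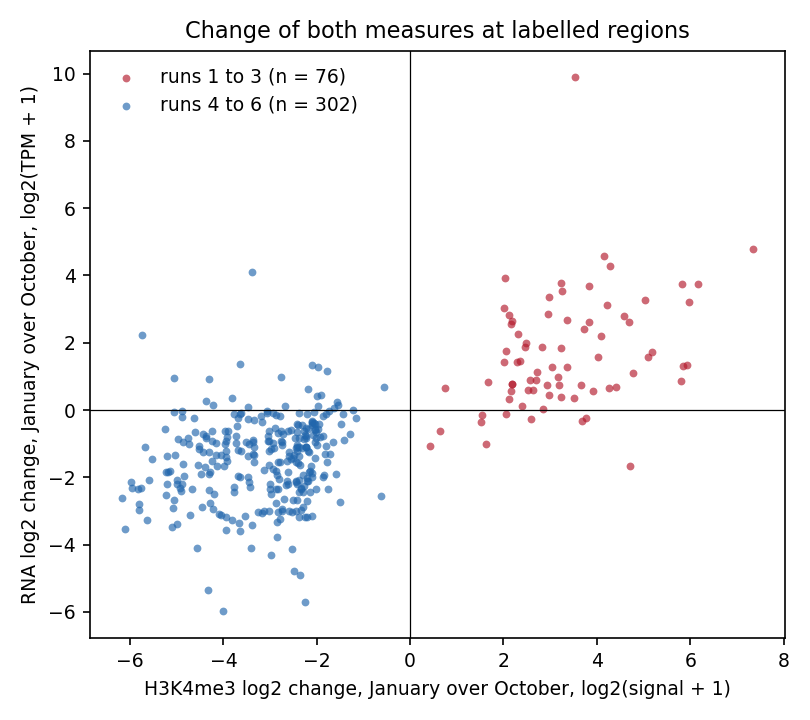
Log2 change in H3K4me3 signal (x) and in RNA (y), January against October, for the 378 labelled regions tested in both assays, coloured by group of runs. Runs 1 to 3 lie right of 0 and runs 4 to 6 left of 0, and within each group the cloud is broad. Over the runs of a group together r was 0.36 and 0.17.

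The date of highest mean signal and that of highest mean RNA were also set side by side for the 398 genes whose RNA changed over the dates. With signal highest in October, RNA was highest in October in 257, in December in 12 and in January in 13. With signal highest in January, it was highest in January in 37, in December in 17 and in October in 1. With signal highest in December the RNA was spread, with 29 genes highest in October, 23 in December and 9 in January. The same counts were not made at the other regions. These are therefore a description, and whether such agreement is particular to labelled regions was not tested.

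Some genes were called in both assays in opposite directions, 9 for January against October and 2 for each of the other contrasts. Over all 12775 regions tested in both assays the shares were 0.485% for January against October, 0.204% for December against October and 0.047% for January against December. Of the regions called for signal with RNA tested, January against October, the 9 are out of 252 labelled regions, against 53 of 1730 other regions. At scaffold 8, 16181627 to 16183627 (run 2), signal was at the minimum in both October libraries, 20.7 and 20.2 in December and 31.9 and 27.6 in January. RNA was 288, 234 and 256 TPM in October, 152, 158 and 135 TPM in December and 78.6, 80.6 and 81.8 TPM in January. RNA fell by 1.67 on the log2 scale in January against October (SE 0.08, limma, adjusted p = 1.06e-07). At scaffold 1, 37820131 to 37822131 (run 6), signal was 49.1 and 76.8 in October, 13.1 and 46.6 in December and at the minimum in January. Its RNA averaged 2.19 ± 0.85 TPM in October, 6.21 ± 0.53 TPM in December and 13.8 ± 1.85 TPM in January, a rise of 2.24 ± 0.21 in January against October (adjusted p = 7.73e-06).

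A weaker case lay at scaffold 3, 95374 to 97374 (run 6). Signal was 19.8 and 11.4 in October, 8.76 and 12.2 in December and 0.132 and 1.11 in January. RNA was 0.545, 0.443 and 0.464 TPM in October, 11.7, 17.6 and 4.48 TPM in December and 14.6, 46.0 and 21.6 TPM in January. RNA rose by 4.10 ± 0.46 in January against October (limma, adjusted p = 2.68e-05), with a wide spread among the January libraries. At scaffold 1, 36415658 to 36417658 (run 6), RNA averaged 91.9 ± 9.98 TPM in October, 140.1 ± 19.4 TPM in December and 59.5 ± 10.8 TPM in January. Signal there was 63.5 and 74.5 in October, 8.61 and 30.0 in December and 5.42 and 2.41 in January, so RNA peaked while the signal stood lower.

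RNA was also present at regions with signal at the minimum. The counts that follow were made at labelled regions only, so whether they are particular to these was not tested. At some date, 37 of the 40 genes of run 2 and 200 of the 313 of run 6 reached a mean of 1 TPM. Among the 35 regions of run 2 at the minimum in both October libraries, the mean October RNA was at least 1 TPM in 28 and at least 5 TPM in 20, with a median of 7.37 TPM and a highest value of 259 TPM. Among the 228 regions of run 6 at the minimum in both January libraries, it was at least 1 TPM in 93 and at least 5 TPM in 41 in January, with a median of 0.649 TPM and a highest value of 101 TPM. An example is scaffold 2, 25743073 to 25745073, where signal was 0.183 and 52.6 in October, 53.8 and 78.8 in December and at the minimum in January. Its RNA stayed between 45.7 and 62.7 TPM, with 61.7, 61.2 and 62.7 TPM in October, 50.3, 45.7 and 46.7 TPM in December and 57.7, 52.1 and 54.1 TPM in January. The fall in December against October was 0.37 on the log2 scale (log2 change -0.37, SE 0.07, limma, adjusted p = 9.15e-04). The sources used here do not say whether a control was subtracted before deposit, so a region at the minimum can still hold reads.

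The opposite also occurred. At scaffold 3, 14579554 to 14581554 (run 6), signal was 52.5 and 83.6 in October, 26.9 and 49.7 in December and at the minimum in January, and RNA was listed at 0 in all 9 libraries. The region with the smallest range on scaffold 1, described above, was likewise listed at 0 throughout. At scaffold 5, 10678180 to 10680180 (run 2), signal was at the minimum in October, 52.0 and 49.6 in December and 97.0 and 107 in January. RNA there was low, with 0.0755 ± 0.131 TPM in October, 0.684 ± 0.296 TPM in December and 0.652 ± 0.146 TPM in January, and was not tested.

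Labelled regions called for signal had a lower median level than the other regions called in the same contrast, which is a description and not a test. For January against October, the median mean signal at the highest date was 72.7 in labelled regions called higher, against 279 in other regions called higher, and 47.5 against 133 in those called lower. Their median log2 differences in signal were larger, at 3.25 against 0.57 for those called higher and at -3.07 against -0.93 for those called lower.

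Of the labelled regions, 32 neighbouring pairs lay within 10000 bp of each other, and none overlapped. In 12 pairs both regions belonged to the same run, and in 25 pairs both belonged to runs 1 to 3 or both to runs 4 to 6. Runs 1 to 3 hold 106 regions and runs 4 to 6 hold 565, so pairs on one side are common at any distance. The counts were not set against more distant pairs, and nothing is read from them.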

How the data were processed

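The authors deposited RNA values in TPM, with TopHat and Picard named in the submitters' processing notes. RNA libraries were stranded, and the sources used here do not give the strand setting of the counting. H3K4me3 values are a normalised signal (TMM) per region, per the file headers, with FastQC, Trimmomatic, Bowtie2, Picard and DiffBind named in the notes. All values of a library were whole multiples of 1 step within 0.01 (100%), so reads were recovered by division (14216613 to 28126160 per library). Depth behind the TPM is unknown. All RNA libraries share 1 lane and all H3K4me3 libraries another, per the labels.

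Tests were run with limma 3.58.1 (R 4.3.3, intensity trend) on log2(value + 1), over all regions that reached a signal of 10 in 2 or more libraries (15360 of 25635) and all genes that reached 1 TPM in 3 or more libraries (18384 of 29449). Date was the only factor, two-sided p-values were adjusted over all features tested by the Benjamini-Hochberg method, and calls were made at an adjusted p under 0.05. Log2 changes are on this scale and understate those of low values. edgeR 4.0.16 and DESeq2 1.42.0 were run on recovered reads as alternatives. Scripts were tested on simulated data.

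The members, the lists and the rule for named regions were chosen with earlier results of these data known. Per contrast the rule takes the 4 largest rises and falls in signal among called regions without overlap and at least the median level (22.0), the 3 regions per direction and the 2 opposite ones that lead in both assays, and the regions with the highest, lowest and least variable signal. Not all regions it takes are described.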

Additional observations from a re-analysis of the deposited data

How the results depend on the processing

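RNA counts kept within 1.5 times of the main count under every alternative run: 347 to 393 genes over the 3 dates, 293 to 353 for December against October, 137 to 157 for January against December and 323 to 382 for January against October when single libraries were left out. H3K4me3 counts depended on the low-signal filter. Without it they were 42 over the 3 dates (main 280) and 11 for December against October (main 93). They were 0 for January against December (main 87) and 98 for January against October (main 314). Over all 25635 regions the counts without the filter were 314, 71, 0 and 741, in the same order. DESeq2 called 187 for December against October and 261 for January against December, where edgeR called 108 and 107. A pseudocount of 10 gave 168 for December against October. Over all 15360 regions tested, DESeq2 called 4546 and 2094, edgeR 3034 and 758, and the pseudocount of 10 gave 1589. Leaving out single H3K4me3 libraries gave 246 to 337, 54 to 149, 28 to 151 and 240 to 352 for these 4 tests. For calls in both assays it gave 49 to 126 for December against October, 14 to 61 for January against December and 181 to 240 for January against October. An adjusted p under 0.01 in both assays left 45, 14 and 165. The cause of these shifts was not tested.

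Same-numbered H3K4me3 libraries deviated together between October and December (correlation of deviations 0.53) but not between either and January (-0.07 and -0.10). For RNA these correlations were -0.09 to 0.11, and not every library correlated best with its own number, so the numbers are not taken as pairs. With a replicate block the H3K4me3 counts were 354, 137, 166 and 368, where 2430, 1159, 542 and 2327 of all 15360 regions were called. The RNA counts were 394, 345, 157 and 381, and the counts in both assays 114, 57 and 249. For the named regions, 819 of 872 recomputed changes stayed on their side of the threshold, 50 lost and 3 gained a call, and none reversed. Of the losses 27 came without the filter. Weak regions limit the H3K4me3 side, with a median of 8 and 1 recovered reads in the January libraries.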
